A study of Mus musculus with 10 samples.

Results

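The enzymes that build purine and pyrimidine nucleotides were followed in mSCLC-2405 cells, a mouse line of small cell lung cancer, with and without stiripentol. The members were taken by name from the gene symbols of the deposited table and are Prps1, Ppat, Gart, Pfas, Paics, Atic and Impdh2 of purine synthesis and Cad, Umps and Ctps of pyrimidine synthesis. The 10 symbols stand on 11 of the 26335 rows of the table, because Ppat is listed on 2 rows. All 11 rows were among the 12306 rows with a mean log2 CPM above 0 that entered the test.

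The study compared 5 control libraries, from cells kept in the solvent DMSO, with 5 libraries from cells kept in 250 µM stiripentol, an antiseizure medicine, both for 48 h. The line came from a primary lung tumor of a mouse model with conditional gene deletions, made after Cre was delivered by adenovirus into the airway, so that both groups carry the same deletions. It is 1 line, and nothing in the sample labels says whether the libraries of a group came from separate cultures. The p-values therefore measure the spread between these libraries. Values are log2 CPM, the log2 of a gene's reads scaled to the size of the library, with a small number of reads added, and every change is stiripentol minus control on that scale.

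Of 10 small cell and neuroendocrine markers, 7 had a row and 2 had a mean log2 CPM above 0. Ncam1 lay between 6.54 and 7.27 in all libraries and Uchl1 between -0.85 and 1.53, while the other measured markers were below that level. Depth ran from 22375625 to 65299372 reads per control library and from 55015760 to 60670901 per stiripentol library, and the fewest reads behind any member value was 643. Across all genes the libraries of each group fell into a pair and a trio. Controls 4 and 5 and stiripentol 1 and 2 are called set A below, and controls 1 to 3 and stiripentol 3 to 5 set B. This joining of controls to treated libraries follows the numbers they carry in a table of the study, where set A holds 1 and 2 and set B holds 3 to 5. Pearson's r across genes was 0.983 to 0.997 within a trio or pair, and 0.920 to 0.939 between the pair and the trio of the controls. Controls 4 and 5 were nearer to stiripentol 3 to 5 (r of 0.932 to 0.938) than to stiripentol 1 and 2 (0.881 to 0.904). For this reason members' values are also given within each set or across the sets, as are those of other genes where they differ. A gene without reads stands at -4.82 in controls 1 to 3 and at -4.74 in controls 4 and 5 and all stiripentol libraries. Set and culture cannot be told apart, nor can set and normalization among the controls. In bulk RNA, fewer cells with a transcript and less of it per cell cannot be told apart either.

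As background, purines are assembled on ribose phosphate. Phosphoribosyl pyrophosphate, PRPP, is the activated sugar, and a chain of enzymes builds the ring on it up to inosine monophosphate, IMP, which is then turned into the adenine and guanine nucleotides. Pyrimidines are built the other way round, with the ring made before the sugar is attached. Dividing cells depend on both routes for RNA and DNA, the carbon units of the purine ring come from formyl folate, and several of these genes are known targets of the transcription factor Myc, which binds the E-box CACGTG with Max.

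The E-box was looked for in the RefSeq promoter windows of GRCm38.p6, which run from 250 bases before to 50 bases after a gene's start, since these sequences are the nearest link between the members and Myc. Of the 10 member genes 9 matched a window, and 3 of the 9 held the motif (33.3%), against 8.09% of all 27025 genes with a window. The letters read the same on both strands, and a match describes the sequence only. The matches are shown 5′ to 3′ with 12 bases on each side and the E-box in capitals, on the plus strand, where the genes lie.
Atic, chr1:71557137-71557166, the motif starting 7 bases before the start: ggacctcggggtCACGTGgggtcgacacgc
Paics, chr5:76951087-76951116, the motif starting 203 bases before the start: cgcctcggaaagCACGTGgagggacctgct
Impdh2, chr9:108560314-108560343, the motif starting 110 bases before the start: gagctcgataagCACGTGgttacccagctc
The match upstream of Paics lies in an untranslated part of an exon of Ppat. Ppat is transcribed from the other strand and overlaps Paics head to head by 272 bases. The match of Impdh2 lies in an untranslated exon of another Impdh2 transcript in GENCODE M21. These 3 genes did not share a pattern across the libraries, as their values below show.

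Few of the enzymes were called over all 10 libraries, and the count depended on whether the fit knew the sets. Of the 11 rows, 0 were lower in stiripentol at a limma adjusted p under 0.05, against 14.1% of all genes tested, and 1 was higher, against 13.6%. At an unadjusted p under 0.05, Paics was lower and Prps1 and a row of Ppat were higher, and limma voom on the recovered reads called the same numbers, 0 lower and 1 higher. With a term for the set in the fit of all 10 libraries, 6 rows were called lower and 2 higher, where 27.1% and 23.6% of all genes were. The median change of the 11 rows was -0.40, with 8 negative and 3 positive, beside a median of -0.06 over all genes. In 0 of the 11 rows did the 5 stiripentol libraries lie all above or all below the 5 controls, where 14.3% of all genes lay all below and 13.0% all above. Much of the spread lay among the controls. Controls 1 to 3 had a higher mean than controls 4 and 5 in 10 of 11 rows, which held for 48.8% of all genes.

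**Figure D1:**
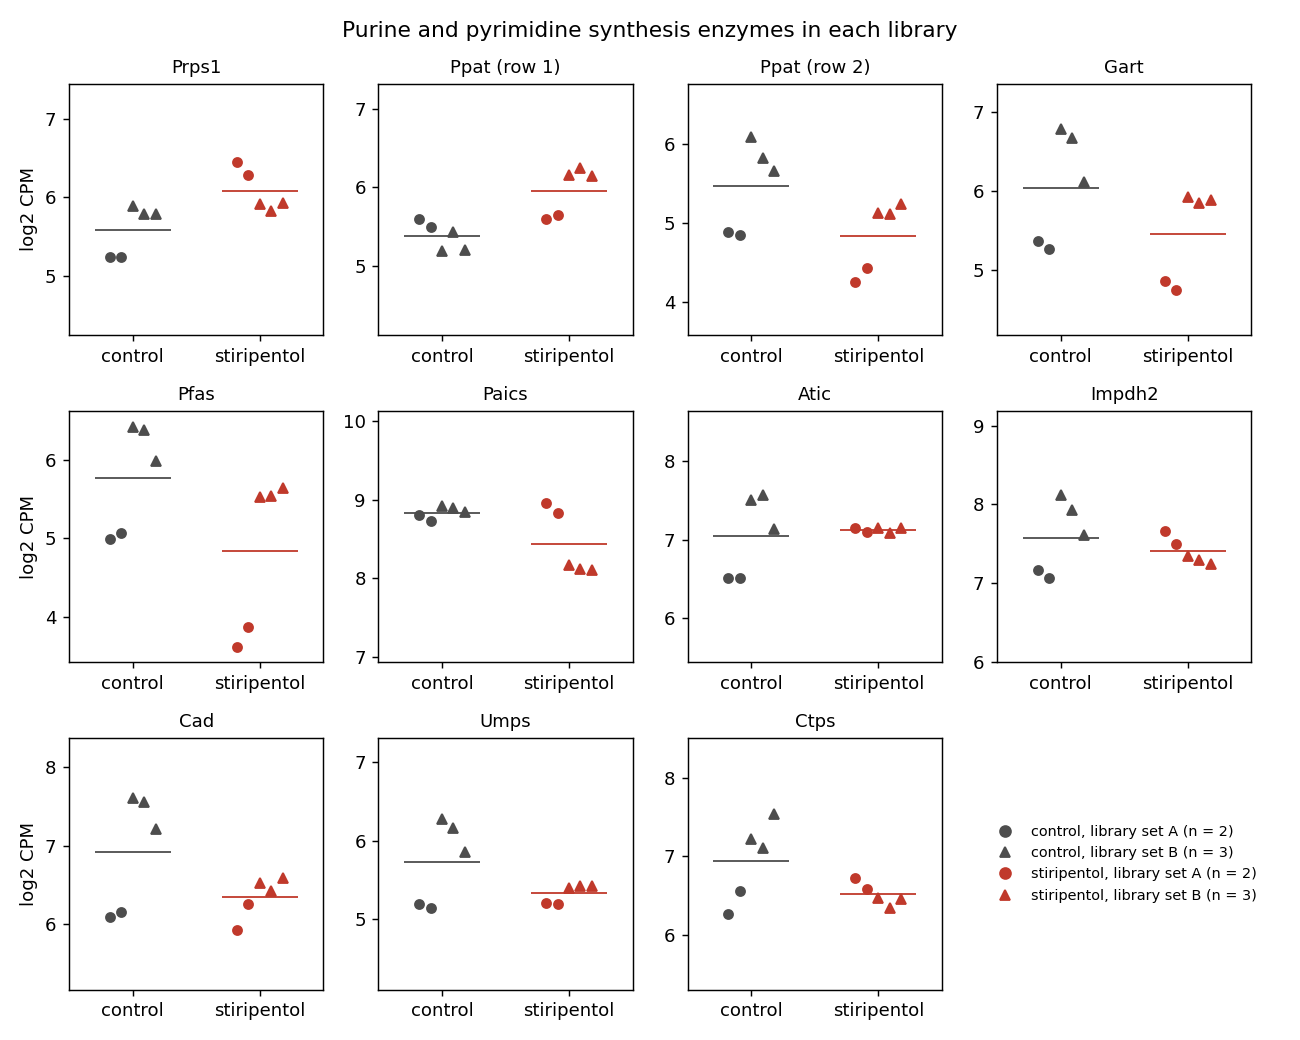
Log2 CPM (y axis) of the 11 rows in the 5 control and 5 stiripentol libraries, each panel spanning the same number of log2 units. Circles are set A, triangles set B and lines the group means. In most panels the control triangles sit well above the control circles, with the red triangles between them, while Prps1, the first row of Ppat and Paics look different.

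Prps1 makes PRPP, the substrate with which both routes begin or end (chrX:140456613-140476140, GRCm38, plus strand). It stood at 5.89, 5.79, 5.79, 5.24 and 5.24 in controls 1 to 5 and at 6.45, 6.28, 5.91, 5.83 and 5.93 in stiripentol 1 to 5. Stiripentol 1 and 2 lay above every control, and stiripentol 4 lay below control 1. The mean was 5.59 ± 0.32 (SD, n = 5) in control and 6.08 ± 0.27 in stiripentol, a change of 0.49 (SE 0.18, limma adjusted p = 0.0648). Prps1 rose by 1.13 within set A (adjusted p = 5.54e-06) and changed by 0.07 within set B (adjusted p = 0.359), and it was higher in both comparisons across the sets, by 0.65 and 0.55. It was thus above zero in each pairing of the libraries, which the other members were not, except the first row of Ppat. Prps1l3, a closely related gene, changed by -2.09 in set A and -0.99 in set B. Counting could divide reads between Prps1 and Prps1l3, so the changes of Prps1 are uncertain to that extent.

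Ppat catalyses the committed step of purine synthesis, the transfer of an amino group to PRPP (chr5:76913249-76951578, minus strand). Both rows bear the symbol Ppat. The symbol is also a synonym of Coasy, an enzyme of coenzyme A synthesis, in the RefSeq gene table, and the deposited table has no row named Coasy, so neither row could be assigned to a gene. The first row stood at 5.19, 5.44, 5.20, 5.60 and 5.50 in controls 1 to 5 and at 5.60, 5.65, 6.16, 6.25 and 6.14 in stiripentol 1 to 5. Stiripentol 3 to 5 lay above every control, and stiripentol 1 lay at the level of control 4. This row rose by 0.57 (SE 0.16, limma adjusted p = 0.0245), the only call among the 11 rows. The call was lost when control 1 or 3 or stiripentol 3, 4 or 5 was left out (changes of 0.50 to 0.53), and the change was 0.91 within set B and 0.07 within set A.

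The second row of Ppat went the other way. It stood at 6.09, 5.83, 5.66, 4.89 and 4.85 in controls 1 to 5 and at 4.25, 4.43, 5.13, 5.11 and 5.24 in stiripentol 1 to 5. Every treated library lay below controls 1 to 3, and stiripentol 3 to 5 lay above controls 4 and 5. The change was -0.63 (SE 0.29, adjusted p = 0.126).

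Gart, a trifunctional enzyme of the early ring-building steps (chr16:91621186-91646952, minus strand), followed the same order as the second row of Ppat. It stood at 6.79, 6.67, 6.11, 5.37 and 5.26 in controls 1 to 5 and at 4.85, 4.74, 5.92, 5.85 and 5.88 in stiripentol 1 to 5. The group means were 6.04 ± 0.71 and 5.45 ± 0.60, and the change of -0.59 (SE 0.37, adjusted p = 0.237) was smaller than the spread within either group.

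Pfas, the glutamine-using enzyme of the same stretch (chr11:68985697-69008460, minus strand), had the widest range of the members. It stood at 6.42, 6.38, 5.98, 4.99 and 5.07 in controls 1 to 5 and at 3.62, 3.87, 5.52, 5.54 and 5.64 in stiripentol 1 to 5. Stiripentol 1 and 2 lay more than 1 log2 unit below every other library. The change was -0.93 with a 95% interval of -1.98 to 0.12 (limma adjusted p = 0.164).

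Gart, Pfas and the second row of Ppat were the 3 rows that limma called in the same direction in both sets. The changes in set A were -0.52, -1.28 and -0.53 and in set B -0.64, -0.69 and -0.70, in that order. Across the sets their direction depended on the controls: stiripentol 3 to 5 were above controls 4 and 5 by 0.56, 0.54 and 0.29, and stiripentol 1 and 2 were below controls 1 to 3 by log2 changes of -1.73, -2.51 and -1.52. All of these cross-set changes were called. The share of all genes called in both sets, in the same or in opposite directions, was not counted. By sign alone, 4 of the 11 rows were lower in both sets, where 34.1% of all genes were. In 2 of the 11 rows both changes were positive, where 28.9% of all genes had this pattern.

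Paics, which carries out the steps that follow (chr5:76951307-76967509, plus strand), was the steadiest member among the controls. It stood at 8.92, 8.89, 8.84, 8.80 and 8.73 in controls 1 to 5 and at 8.96, 8.83, 8.17, 8.12 and 8.10 in stiripentol 1 to 5. Stiripentol 3 to 5 lay below every control, and stiripentol 1 and 2 lay among the controls or above them. The change was -0.40 (SE 0.18, adjusted p = 0.117). Against both control sets stiripentol 3 to 5 were lower, by -0.75 against controls 1 to 3 and by -0.64 against controls 4 and 5 (limma adjusted p = 3.58e-05 and 1.05e-05), whereas stiripentol 1 and 2 differed by 0.13 from controls 4 and 5 and by 0.01 from controls 1 to 3.

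Atic closes the ring to give IMP (chr1:71557150-71579631, plus strand). It stood at 7.51, 7.57, 7.14, 6.52 and 6.51 in controls 1 to 5 and at 7.15, 7.10, 7.15, 7.09 and 7.15 in stiripentol 1 to 5. The treated libraries were nearly level, with an SD of 0.03 beside 0.52 in control, and lay between the pair and the trio of the controls apart from control 3 at 7.14. The change was 0.08 with a 95% interval of -0.39 to 0.55. The fit over all libraries therefore did not exclude a change of either sign within that range. Within set A Atic rose by 0.61 (limma adjusted p = 0.000231), and within set B it changed by -0.28 (adjusted p = 0.0592).

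Impdh2 turns IMP toward guanine nucleotides (chr9:108560286-108565584, plus strand). It stood at 8.12, 7.93, 7.61, 7.17 and 7.06 in controls 1 to 5 and at 7.66, 7.50, 7.35, 7.29 and 7.24 in stiripentol 1 to 5. All treated libraries lay above controls 4 and 5 and below controls 1 and 2. Impdh2 was the row called in opposite directions, higher by 0.47 in set A and changed by -0.60 in set B (limma adjusted p = 0.00212 and 0.00356).

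Among the pyrimidine enzymes, Cad and Umps had the treated libraries below controls 1 to 3, and Ctps differed from them in how the treated libraries were ordered. Cad, which joins the opening activities of the route in 1 protein (chr5:31054780-31078479, plus strand), stood at 7.61, 7.55, 7.21, 6.09 and 6.16 in controls 1 to 5 and at 5.93, 6.26, 6.52, 6.42 and 6.59 in stiripentol 1 to 5. Umps, which attaches the sugar and forms uridine monophosphate (chr16:33954782-33967038, minus strand), stood at 6.27, 6.16, 5.85, 5.20 and 5.14 in controls 1 to 5 and at 5.21, 5.20, 5.40, 5.42 and 5.42 in stiripentol 1 to 5. In both genes every treated library lay below controls 1 to 3, and all treated libraries but stiripentol 1 of Cad reached or passed the lower of controls 4 and 5. Ctps, which makes cytidine triphosphate (chr4:120539868-120570276, minus strand), stood at 7.22, 7.11, 7.54, 6.27 and 6.56 in controls 1 to 5 and at 6.72, 6.59, 6.47, 6.34 and 6.46 in stiripentol 1 to 5. Its treated set B had a lower mean than its treated set A, by a difference of -0.23, which was 0.41 in Cad and 0.21 in Umps. Stiripentol 3 to 5 differed from controls 4 and 5 by 0.01 in Ctps (limma adjusted p = 0.938), by 0.39 in Cad and by 0.24 in Umps, of which Cad and Umps were called. The changes over all libraries were -0.58 (SE 0.31) for Cad, -0.40 (SE 0.22) for Umps and -0.42 (SE 0.22) for Ctps, with limma adjusted p of 0.185, 0.202 and 0.165. In set B they were -0.95, -0.68 and -0.86, each called, and in set A -0.03, 0.03 and 0.24, none called.

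Within set B, limma called 8 of the 11 rows lower and 1 higher, where it called 27.0% of all genes lower and 37.7% higher. Within set A it called 3 lower and 3 higher, beside 46.5% and 25.7% of all genes. For stiripentol 3 to 5 against controls 4 and 5 the numbers turned to 1 lower and 9 higher (31.5% and 37.5% of all genes), Paics being the lower row and Ctps the uncalled one. For stiripentol 1 and 2 against controls 1 to 3 they were 6 lower and 2 higher (45.2% and 28.1%). Stiripentol 3 to 5 had means between the controls of the sets in 8 of 11 rows, which held for 34.8% of all genes. The libraries of a pair or trio are very alike, so the p-values within a set measure only that small spread, and the sets were known from these data.

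**Figure D2:**
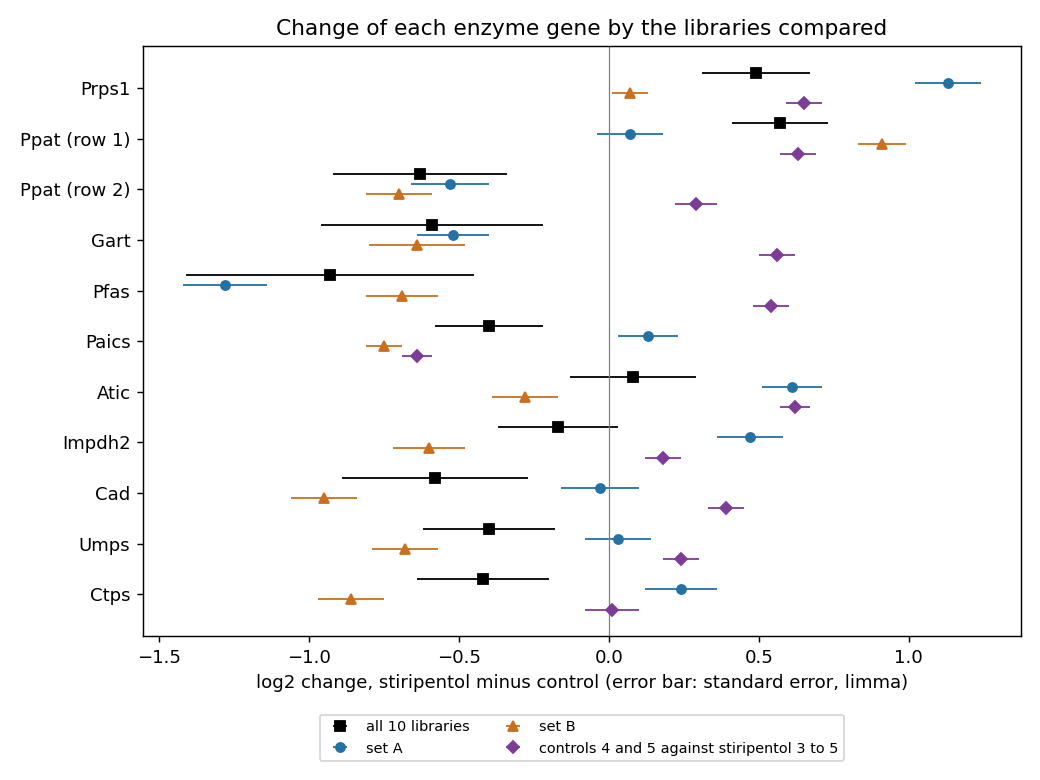
Log2 change of each row (x axis, stiripentol minus control, with the limma standard error) over all 10 libraries, within set A, within set B and for controls 4 and 5 against stiripentol 3 to 5. The set B triangles lie left of zero for 9 of 11 rows and the purple diamonds right of zero for 10 of 11, with Paics left of zero in both.

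The difference between the sets was itself tested. With an interaction of treatment and set, limma called 9 of the 11 rows, where it called 63.3% of all genes. These p-values, too, measure only the small spread within a pair or trio, and the sets were known from these data. Fits with a term for the set likewise count the very alike libraries as separate. The rows without a call were Gart, whose change differed by -0.12 between the sets (95% interval -0.62 to 0.38), and the second row of Ppat, by -0.18 (-0.54 to 0.19). Of the 11 rows, 5 were higher in set A and lower in set B, a pattern of 9.81% of all genes.

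Members with a paralogue of the same activity were compared with it inside each library, so that a factor scaling both genes alike drops out. A difference between the sets need not drop out. Impdh2 minus Impdh1 was 1.94, 1.70 and 1.49 in controls 1 to 3, and 0.30 and 0.22 in controls 4 and 5. The level of the difference can also depend on gene length, according to the library kit used, so only its change is read. For Prps1 minus Prps2 the difference of log2 CPM was -0.73, -0.74, -0.94, -1.13 and -1.32 in controls 1 to 5 and 0.11, 0.02, -0.17, -0.18 and -0.17 in stiripentol 1 to 5. The groups did not overlap, and the shift toward Prps1 was 0.90, with 1.29 in set A and 0.63 in set B. The shift is uncertain to the extent that counting could divide reads between Prps1 and Prps1l3. A two-sided exact permutation test over all arrangements of the libraries gave p = 0.00794, the smallest it can give, and 0.0238 after adjustment over the 3 pairs. The test treats all libraries as exchangeable, although each group is a pair and a trio of very alike libraries. Its p-value therefore overstates the number of independent values. The pairs were also tested after their values had been seen. Prps2 fell by 0.40 in its own right (limma adjusted p = 0.0179), from 6.37 to 6.72 in control to 6.01 to 6.34 in stiripentol. Its change was -0.16 in set A (adjusted p = 0.206) and -0.56 in set B (adjusted p = 0.000277), which differed by the limma interaction (adjusted p = 0.0142). Against controls 4 and 5 alone, all stiripentol libraries gave -0.31, which was not called (limma adjusted p = 0.138).

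For Impdh2 minus Impdh1 the difference changed by -0.35 (exact permutation p = 0.397), by 0.94 in set A and by -1.21 in set B. For Ctps minus Ctps2 it changed by 0.05 (exact permutation p = 0.897), by 0.47 and -0.23. In both pairs the ranges of the groups overlapped.

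**Figure D3:**
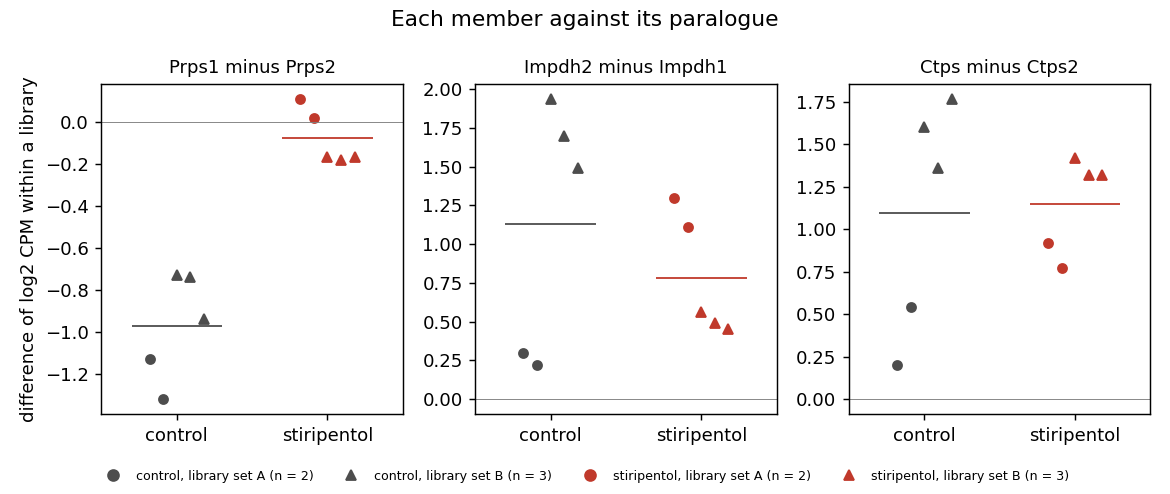
Difference of log2 CPM between a member and its paralogue within each library (y axis), for the 5 control and 5 stiripentol libraries, with group means as lines, circles for set A and triangles for set B. For Prps1 minus Prps2 all treated libraries, from -0.18 to 0.11, lie above all controls, from -1.32 to -0.73, while the other pairs overlap.

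The other genes of nucleotide metabolism were taken from lists by pathway. Of 102 rows, 90 were tested, 17 were called lower and 10 higher, near the 14.1% and 13.6% of all genes, and their median change was -0.17. The shares of all genes apply to each list below, and with so few rows a list's count is a description only. In PRPP supply 3 of 4 rows were lower and 0 higher: Prps2, Prpsap1, which encodes a protein bound to PRPP synthetase, and Prps1l3, a gene closely related to Prps1. Prpsap1 fell by 0.75 over all libraries (SE 0.12, limma adjusted p = 0.00188), with changes of -0.77 in set A and -0.74 in set B. It was 6.71 to 7.15 in control and 5.91 to 6.35 in stiripentol, and lower in every pairing of the sets. Prps1l3 changed by -1.43 (limma adjusted p = 0.0184), by -2.09 in set A and -0.99 in set B, but counting could divide reads between it and Prps1, so both values are uncertain to that extent. Prpsap2 had a change of 0.60 (adjusted p = 0.0732), with 0.20 in set A and 0.87 in set B.

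The steps of the same routes that are not members had no call over all libraries, but several did with a term for the set. Adsl, the step between Paics and Atic that also acts in adenine nucleotide synthesis, changed by -0.33 (limma adjusted p = 0.154, and 0.00346 with the term), by -0.34 in set A and -0.32 in set B. Dhodh, the mitochondrial step between Cad and Umps, changed by -0.53 (limma adjusted p = 0.366, and 0.0248 with the term), and stiripentol 3 to 5 were above controls 4 and 5 by 0.73. Past IMP, Gmps of the guanine branch changed by 0.29 (adjusted p = 0.225, and 0.19 with the term), by 0.93 in set A and -0.13 in set B. Adss of the adenine branch changed by 0.38 (adjusted p = 0.0909, and 0.0282 with the term), by 0.80 in set A and 0.11 in set B. Its relative Adssl1 changed by 0.71 (adjusted p = 0.145, and 0.00455 with the term), by 0.21 in set A and 1.04 in set B, and by -0.40 for stiripentol 3 to 5 against controls 4 and 5. The paralogue Impdh1 changed by 0.18 (adjusted p = 0.482, and 0.43 with the term), by -0.48 in set A and 0.62 in set B. The paralogue Ctps2 changed by -0.47 (adjusted p = 0.0883, and 0.00221 with the term). Its change was -0.23 in set A (limma adjusted p = 0.0719, not called) and -0.64 in set B.

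Salvage and breakdown had calls in both directions. Of 8 purine salvage rows tested, 2 were lower and 0 higher: Adk, which phosphorylates adenosine, fell by 0.59 and Hprt, which recovers hypoxanthine and guanine with PRPP, fell by 0.52 (limma adjusted p = 0.0046 and 0.0215). Both were lower in each set, Adk by changes of -0.66 and -0.54 and Hprt by -0.68 and -0.42 in sets A and B. Of 10 pyrimidine salvage rows, 0 were lower and 2 higher, Uckl1 by 0.90 and Uprt by 0.42. For stiripentol 3 to 5 against controls 4 and 5 Uckl1 differed by 0.05, which was not called, and within set A Uprt differed by 0.30, which was not called either. Of 12 breakdown rows, 4 were lower and 1 higher. Gda, guanine deaminase, changed by -2.39, and Nt5c3, which removes the phosphate from pyrimidine monophosphates, rose by 0.78 (adjusted p = 0.00159 and 0.0006). Gda was lower in both sets, by changes of -1.19 in A and -3.19 in B. Nt5c3 was nearly the same in both sets, 4.39 to 4.58 in control and 5.23 to 5.33 in stiripentol.

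Of 15 nucleotide kinase rows, 4 were lower and 3 higher, with Ak4 at -1.79 and Nme6 at 1.02 as the ends of the range. The change of Ak4 was -4.09 in set A and -0.25 in set B. Nme6 was close in both, at 0.87 and 1.13. Of 3 nucleoside transporter rows, 1 was lower, Slc29a3 (-0.58, with -0.92 in set A and -0.36 in set B).

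Deoxynucleotide supply and DNA replication had few calls over all libraries, and their counts turned with the controls used. Of 9 deoxynucleotide rows, 1 was lower over all libraries, 8 were higher and 1 lower for stiripentol 3 to 5 against controls 4 and 5, and 8 were lower for stiripentol 1 and 2 against controls 1 to 3. The row called over all libraries was Samhd1, which degrades deoxynucleotides (-0.83, limma adjusted p = 0.00371), with -1.33 in set A and -0.50 in set B. Of 11 DNA replication rows, 1 was higher over all libraries, 6 were higher in set A, 10 were higher for stiripentol 3 to 5 against controls 4 and 5, and 8 were lower for stiripentol 1 and 2 against controls 1 to 3. The row called over all libraries was the proliferation marker Mki67 (0.93, limma adjusted p = 0.0331), with 1.61 in set A and 0.48 in set B.

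Of 8 rows for folate one-carbon donors, 2 were lower and 2 higher. The mitochondrial enzymes Mthfd2, which supplies formyl folate, and Aldh1l2, which oxidizes it, rose by 1.49 and 2.38 (limma adjusted p = 0.00581 and 0.000334). Both were higher in each set, Mthfd2 by 2.59 in set A and 0.76 in set B and Aldh1l2 by 2.39 and 2.36. Mthfd2l, a relative of Mthfd2, and Shmt1, another gene of this list, fell by 0.77 and 0.75 over all libraries. Mthfd2l changed by 0.02 in set A (limma adjusted p = 0.929) and by -1.30 in set B. Shmt1 changed by -1.16 in set A and -0.48 in set B, and by -0.16 for stiripentol 3 to 5 against controls 4 and 5 (adjusted p = 0.128). Atf4, a transcription factor of the amino acid stress response that is known to act on Mthfd2 and Aldh1l2, rose by 1.08 (limma adjusted p = 0.000819). It was 8.62 to 9.28 in control and 9.83 to 10.24 in stiripentol, with a change of 1.56 in set A and 0.77 in set B.

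Myc, too, depended on the controls used. It stood at 7.65, 7.69, 7.45, 6.42 and 6.56 in controls 1 to 5 and at 5.87, 6.22, 6.92, 7.07 and 7.07 in stiripentol 1 to 5. The change was -0.52 over all libraries (SE 0.33, limma adjusted p = 0.24, and 0.00105 with a term for the set). It was called lower within set A, at -0.45 (limma adjusted p = 0.00992), within set B, at -0.58 (adjusted p = 0.000627), and for stiripentol 1 and 2 against controls 1 to 3, at -1.55. It was called higher, by 0.53, for stiripentol 3 to 5 against controls 4 and 5. No correlation is given, since the libraries form clusters.

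**Figure D4:**
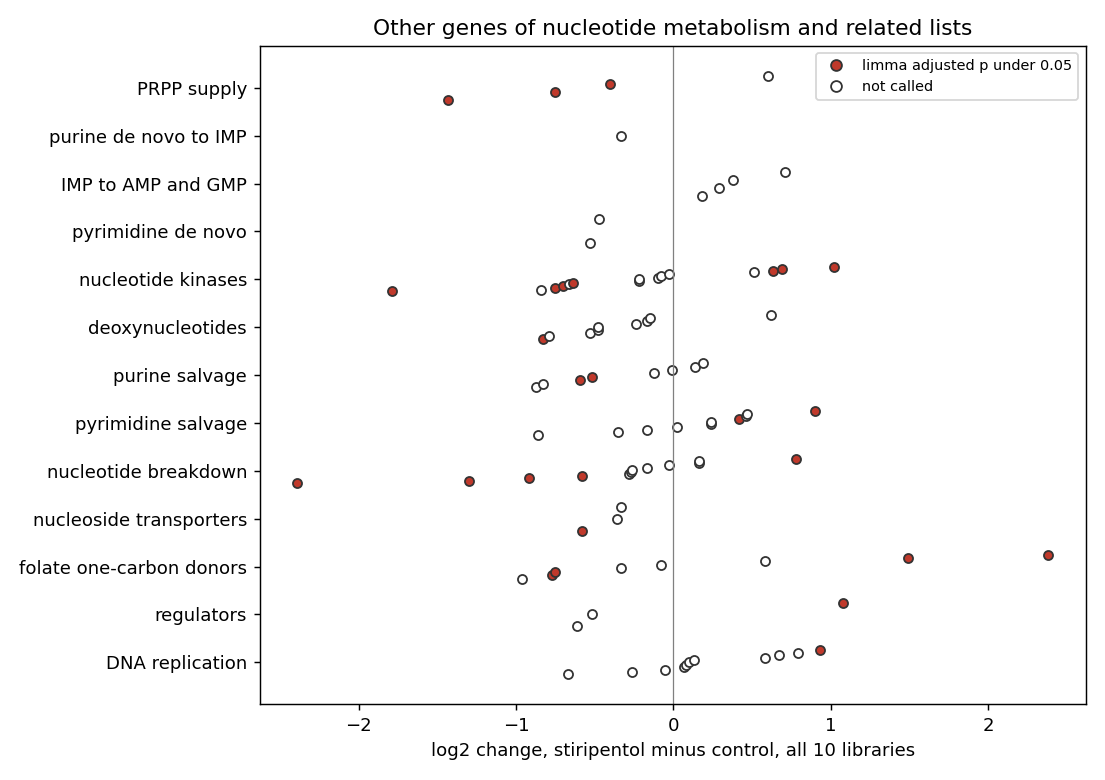
Log2 change over all 10 libraries (x axis, stiripentol minus control) of the 90 tested rows of other genes by list, with filled points for a limma adjusted p under 0.05. PRPP supply has 3 filled points left of zero, folate one-carbon donors have 2 on each side, and the remaining steps of the synthesis routes have none.

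Markers of other cell types moved with the groups. The summed CPM of 3 fibroblast genes was 251 to 410 in control and 50.3 to 105 in stiripentol. The group means were 6.91 and 1.20 log2 CPM for Col3a1, 6.58 and 6.05 for Col1a1 and 2.60 and 2.11 for Dcn. The sum of the immune genes, 2 of 3 measured, was 4.21 to 18 and 55.2 to 103. The latter sum was nearly all Cd68, with group means of 2.98 and 6.19 log2 CPM. Ptprc, a marker of white blood cells, lay at or near the value of no reads. Of the endothelial genes, 2 of 2 were below 1 CPM in sum, and Foxj1, the measured 1 of 3 lung epithelial genes, gave 7.84 to 15.3 and 1.39 to 4.28. Their part in the values of the enzymes was not tested.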

How the data were processed

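The authors made 3′ mRNA libraries with a QuantSeq kit per the methods, while the labels name a TruSeq kit; the submitters' processing notes name the build mm10, and an aligner is not given in the sources used here. Values were deposited as log2 CPM, which the authors had normalized with GENAVi, beside columns of their own comparison (means, p, q and fold), which were not used. A gene without reads stands at 1 value in controls 1 to 3 and at another in the remaining 7 libraries. Recovered reads were whole in all values (tolerance 0.1 reads) and gave the depth, which covers counting error only.

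limma 3.58.1 (R 4.3.3) with a mean-variance trend was fitted to the deposited values of 12306 rows with mean log2 CPM above 0, with Benjamini-Hochberg adjustment over all of them and calls under 0.05. The code was tested on simulated data. Python 3.11.15, scipy 1.17.1 and pandas 2.3.3 gave summaries and permutation tests. Named genes were all members, the called gene with the largest rise and fall of each list, the paralogues, the missing steps and Myc; Adssl1, Prpsap1, Prpsap2, Hprt, Uprt, Mthfd2 and Shmt1 were named after their values were seen. Members, lists and sets were chosen with earlier results of these data known. Positions are from GENCODE M21 (GRCm38), sequences from RefSeq. The alternatives were other scalings, filters, pseudocounts and a count model, libraries left out, a replicate block and the sets apart. Libraries with the same number in the sample records did not deviate together, so no pairing was used. Pairing by the study's other numbering, on which the sets rest, was not tested. Some items are not reported here.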

Additional observations from a re-analysis of the deposited data

Results flagged for a closer look

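Among the totals of reads in control, control 5, with 22375625 reads, stood apart from the other controls, its gap to the next library being 0.83 of the range of the group. Of 24 groups of 5 values examined in this way, chance would pick about 1.2.

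For 9 rows the change in set B differed from that in set A by a limma interaction at an adjusted p under 0.05, as it did for 63.3% of all genes. The interaction is judged only against the small spread within a pair or trio. The change in set B minus that in set A was -0.92 for Cad, -0.72 for Umps and -1.10 for Ctps among the pyrimidine enzymes. It was -0.88 for Paics, -0.88 for Atic, -1.06 for Impdh2 and -1.06 for Prps1 in the purine route. It was positive for the first row of Ppat, at 0.83, and for Pfas, at 0.59. The joining of treated and control libraries into a set rests on the study's numbering, and with stiripentol 1 and 2 far from every control the difference cannot be told apart from a difference between cultures or preparations.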

How the results depend on the processing

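The libraries compared changed the calls more than scaling, filter, pseudocount or limma voom did, none of which changed a count of members called. Members called lower, 0 over all libraries, were 6 with a term for the set, 8 in set B, 3 in set A, 1 for controls 4 and 5 against stiripentol 3 to 5, 6 for controls 1 to 3 against stiripentol 1 and 2 and 6 for controls 1 to 3 against all stiripentol libraries, and 0 to 1 with 1 library left out (1 without control 4, Ctps, or stiripentol 1, Paics). Members called higher, 1 over all libraries, were 2 with a term for the set, 3 in set A, 2 for controls 4 and 5 against all stiripentol libraries, 9 against stiripentol 3 to 5, 2 for controls 1 to 3 against stiripentol 1 and 2, 0 with 1 mean per group and set, and 0 to 1 with 1 library left out. Other listed genes called lower, 17, were 34 with a term for the set, 41 in set B, 33 in set A, 7 for controls 4 and 5 against all stiripentol libraries, 53 for controls 1 to 3 against stiripentol 1 and 2, 34 against all stiripentol libraries, 0 with 1 mean per group and set, and 10 to 17 with 1 library left out, lowest without control 1 or 2. Those called higher, 10, were 17, 27 and 23 in the first 3 of these fits, 48 for controls 4 and 5 against stiripentol 3 to 5, 16 for controls 1 to 3 against stiripentol 1 and 2, 0 with 1 mean per group and set and 7 to 10 with 1 library left out. The interaction called 8 to 10 rows with 1 library left out. Of the 12306 genes tested, controls 1 to 3 against all stiripentol libraries gave 2014 lower and 2477 higher. Controls 4 and 5 against all stiripentol libraries gave 1215 lower and 1249 higher, and the replicate block 1062 and 1020. With 1 library left out, 1171 to 1802 genes were called lower and 1218 to 1706 higher.

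With the replicate block, members called higher were 2, with Prps1 added, and other genes called lower were 9. The deviations of libraries with the same number in the sample records correlated at -0.24 to 0.061, so these numbers do not pair them. The block uses the same numbers, and pairing by the study's other numbering was not tested.

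The direction turned within set A for Umps (0.03), Ctps (0.24), Paics (0.13) and Impdh2 (0.47), and within set B for Atic (-0.28). Against controls 4 and 5 alone, all stiripentol libraries gave 0.22 for Cad, 0.16 for Umps, 0.10 for Ctps, 0.13 for Gart and 0.29 for Impdh2, and stiripentol 3 to 5 gave 0.39 for Cad, 0.24 for Umps, 0.01 for Ctps, 0.56 for Gart, 0.29 for the second row of Ppat, 0.54 for Pfas and 0.18 for Impdh2. Against controls 1 to 3, stiripentol 1 and 2 gave 0.01 for Paics and -0.28 for Atic, all stiripentol libraries gave -0.28 for Atic, and Atic was -0.06 to 0.21 with 1 library left out, negative without control 4 or 5. The cause was not tested. Of 297 pairs of a member value and an alternative, 226 kept direction and side of the threshold, 8 lost the call, 41 gained one and 22 turned. Quantile normalization moved the median change of all genes from -0.056 to 0.046.

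The use of 1 cell line and the near-identical libraries of each pair and trio limit these values. With 1 mean per group and set, 0 of all genes were called.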
